A study of Mus musculus with 9 samples.

Results

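The Pax7/Otp cells are sorted neurons of the developing ventral midbrain in which transcripts of the homeobox genes Pax7 and Otp were counted. They were chosen from cells sorted for tdTomato alone (VGAT cells). A well of a sorting plate holds 1 cell, and it was kept when it had at least 2000 genes, at most 50000 counts and under 15% mitochondrial counts, with spike-in RNA left out. A kept well was called a Pax7/Otp cell when its counts of Pax7 and Otp together came to 2 or more. This rule found 83 cells among 1459 kept VGAT wells, in a series with 2034 kept wells in all, and the other 1376 VGAT wells served for comparison. None of the 575 kept wells of cells sorted for tdTomato and GFP met the rule.

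All cells came from VGAT-Cre:Ai14:Pitx3-GFP mice, so every group carries the same alleles and there was no treatment. In these mice a Cre driven from the VGAT (Slc32a1) locus turns on the Ai14 tdTomato reporter in any cell that has expressed VGAT, and GFP marks cells expressing Pitx3. The 7 VGAT plates used here were 4 from embryos at E16 (VGAT E16, replicates 1 to 4) and 3 from newborn pups at P0 (VGAT P0, replicates 1 to 3). Brains of several litters were used, and which animals filled which plate is not given in the sources used here, so the p-values measure the spread between plates, which may be technical. The column names of the tables give each plate 2 labels. These differ in stage for 4 VGAT plates, namely E16 replicates 3 and 4 and P0 replicates 1 and 3. The label that matches the sample titles was used, and every comparison of stages is given with its dependence on this choice. Comparisons within plates do not use the stage.

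The interpeduncular nucleus (IPN) is a midline nucleus under the ventral tegmental area. It receives the habenular input through the fasciculus retroflexus and is built mainly of GABAergic neurons that are born in the anterior hindbrain and midbrain and migrate to the ventral midline. Pax7 is a paired-homeodomain factor of the dorsal neural tube, and Otp is a homeodomain factor best known for hypothalamic neuroendocrine neurons. Both mark neurons of the rostral IPN. Nrp2 is a receptor for class 3 semaphorins, and Casz1 is a zinc finger transcription factor; they are the other given markers of these cells. In GRCm38, Pax7 lies at chr4:139737062-139833528 on the minus strand, Otp at chr13:94875602-94885130, Nrp2 at chr1:62703285-62818695 and Casz1 at chr4:148804429-148954889, these last on the plus strand.

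Since the rule used the counts of Pax7 and Otp, their levels are given only as a description. Pax7 was counted in 64 of the 83 cells, with a median of 4 and at most 47 counts, and Otp in 59 cells, with a median of 2 and at most 45. Both genes were counted in 40 cells, Pax7 alone in 24 and Otp alone in 19. The rule left 38 wells with a single count just outside, and 11 wells lay just inside with 2 counts. In 1338 wells neither gene was counted.

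The share of Pax7/Otp cells differed between plates. It was 4.74% of 190 kept wells on E16 replicate 1, 6.58% of 228 on replicate 2, 1.65% of 303 on replicate 3 and 0.658% of 304 on replicate 4. It was 6.82% of 44 wells on P0 replicate 1, 7.31% of 219 on replicate 2 and 19.3% of 171 on replicate 3. The exact 95% binomial intervals, which cover counting error only, ran from 0.0798 to 2.36% for the lowest plate and from 13.7 to 26.0% for the highest. The 3 P0 plates lay above the 4 E16 plates without overlap, with means of 11.1% ± 7.07 (SD, n = 3) and 3.41% ± 2.74 (SD, n = 4). In a two-sided exact permutation test this difference of 7.73 percentage points had p = 0.0571, the smallest value that 4 against 3 plates allow. The difference was 3.66 points without P0 replicate 3, and with the second plate label it turned round to -6.15 points (exact permutation p = 0.229). The direction with age thus rests on the choice of label. The 3 plates whose labels agree are 1 from P0 and 2 from E16, and there the difference was 1.65 points, too few plates for a test. A smaller share of cells and a lower count per cell cannot be told apart in the share itself. After each well was thinned to 4000 counts, the P0 share was 4.69 points above the E16 share (exact permutation p = 0.114).

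**Figure D1:**
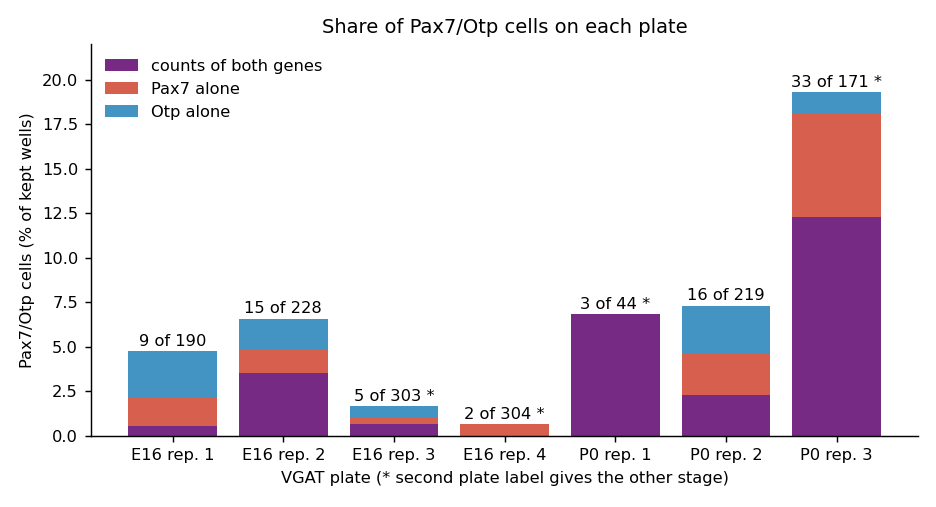
Share of Pax7/Otp cells among kept wells on each VGAT plate, in percent, split by which of the 2 genes was counted; the numbers over the bars give cells of kept wells, and an asterisk marks plates whose second label gives the other stage. The share runs from 0.658% on E16 replicate 4 to 19.3% on P0 replicate 3, and P0 replicate 1 holds only cells with counts of both genes.

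The median depth was 15352 counts in Pax7/Otp cells and 17462 in other wells, with 5.06 and 5.03% mitochondrial counts. Spike-in RNA took 4.95 and 3.53% of counts, and its part in the results was not tested. Depth differed more within single plates, as on P0 replicate 1, with medians of 20468 and 35704 counts, and on P0 replicate 3, with 15017 and 20938. On E16 replicates 3 and 4 and P0 replicate 2 the Pax7/Otp cells were the deeper. The same 384 well labels recur on every plate, so wells were identified by plate and label. Gad1, which encodes an enzyme of GABA synthesis, was counted in 98.8% of Pax7/Otp cells and 98.5% of other wells. Of 16 markers of glia and progenitors, 7 were at 0 in the Pax7/Otp cells, among them Gfap, Olig2, Sox10, Mki67 and Top2a, and the summed level of the list over plates lay between 9.70 and 115 CPM (counts scaled to a common total; median 28.9) against at least 98.2 CPM (median 121) in the other wells. Of 10 markers of microglia and vessels, C1qa, Cldn5, Flt1, Rgs5 and Pdgfrb were at 0 and 5 had counts. The summed level of this list was 0 to 24.7 CPM (median 8.30), against 5.33 to 67.5 CPM (median 8.94) in the other wells. Pitx3 was at 0 as well, and the 9 dopamine neuron markers together reached at most 98.8 CPM, against 68.3 to 144 CPM in the other wells.

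Which genes set the Pax7/Otp cells apart from the other VGAT cells of their plate was asked with sums of counts. Counts were summed per plate over Pax7/Otp cells and over other wells and compared within plates with edgeR's quasi-likelihood test and Benjamini-Hochberg adjustment at 0.05. Pax7 and Otp were left out of the genes tested. E16 replicate 4 had only 2 Pax7/Otp cells and was left out, which left 6 plates. Levels are in CPM scaled by TMM factors. Of 9980 genes, 177 passed (1.77%), of which 93 were higher (0.932%) and 84 lower (0.842%) in the Pax7/Otp cells, and 903 had an unadjusted p under 0.05. Of all genes tested, 562 had the same direction on all 6 plates (5.63%), and 115 of the 177 did (1.15% of genes tested). P0 replicate 3 gave 33 of the 83 cells. Without it 69 genes passed, all of them among the 177, and 98 passed without E16 replicate 2. Of the 177 genes, 31 reached the level asked by the low-count filter, which is 10 counts in a sum of median size, on at most 2 plates of the set where they were lower. Such genes entered the test through the set where they were high and had to differ, so for them the levels and not the p-values carry the result. Of those named here they are Nhlh2, Foxo1, Gpr149, Gm37121, Gm43230, Sox6, Irx3 and Ntn1 among the higher, and Nkx2-2, Otx1, Irs4, Six3os1, Sema3c, Dlx1 and Sox2 and the nearly absent genes among the lower.

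The given markers that the rule did not use were higher. Casz1 was lowest at 60.7, median 123 and highest at 266 CPM in the Pax7/Otp cells, and between 17.2 and 26.9 CPM in the other wells. The 2 sets did not overlap, and the log2 fold change was 2.69 ± 0.23 (SE, n = 6 plates, edgeR adjusted p = 8.28e-06). Nrp2 ran from 20.2 over a median of 527 to 722 CPM, against 88.6 to 102 CPM in the other wells (log2 fold change 2.13 ± 0.32, edgeR adjusted p = 0.00104). On 5 plates it was higher, and on E16 replicate 3, with 5 cells, it was lower. Since the cells were chosen with these markers known, both are a check of the label and no independent finding. Gm37121, a transcript that lies inside Nrp2 on the same strand, was higher on all 6 plates (log2 fold change 2.33), and its counts cannot be told apart from those of Nrp2.

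Several of the largest increases were in genes of transcription factors. Nhlh2, a basic helix-loop-helix factor of young and neuroendocrine neurons, had 42.9 to 448 CPM (median 162) in the Pax7/Otp cells and at most 12.3 CPM in the other wells. Its log2 fold change of 4.66 ± 0.42 was the largest of the genes that passed with the same direction on all plates. Ebf2, a helix-loop-helix factor of the early B-cell factor family that acts in neuronal differentiation and migration, had 10.1 to 563 CPM (median 196) against 1.82 to 20.9 CPM. It was higher on every plate, by 4.05 ± 0.36 on the log2 scale (edgeR adjusted p = 8.28e-06), but on E16 replicates 1 and 3 its 17.4 and 10.1 CPM lay within the range of the other wells. Foxo1, a forkhead factor downstream of insulin signalling, had 50.6 to 462 CPM against 4.48 to 18.2 CPM, with no overlap (4.01 ± 0.39). Mab21l1, a gene of eye and neural development, had 101 to 308 CPM against 3.03 to 85.5 CPM (2.91 ± 0.30).

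The other genes among the 10 largest increases with the same direction on all plates were the following. Shisa6, an auxiliary subunit of AMPA receptors, had 81.4 to 1011 CPM against 36.8 to 76.9 CPM (log2 fold change 2.68, edgeR adjusted p = 1.52e-05). The orphan receptor gene Gpr149 had 13.7 to 188 CPM against 3.73 to 12.9 CPM (2.59), and the potassium channel gene Kcnh1 13.7 to 192 CPM against 9.70 to 17.6 CPM (1.92). For Kcnh1, E16 replicate 2 lay within the range of the other wells. The unnamed transcript Gm43230 (2.09) lies within Kctd8 on the same strand, so their counts cannot be told apart, and Kctd8 itself did not pass (1.08, edgeR adjusted p = 0.160). Shisa6 passed in each alternative that tested it, and Kcnh1 missed the threshold in 4 of 17.

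**Figure D2:**
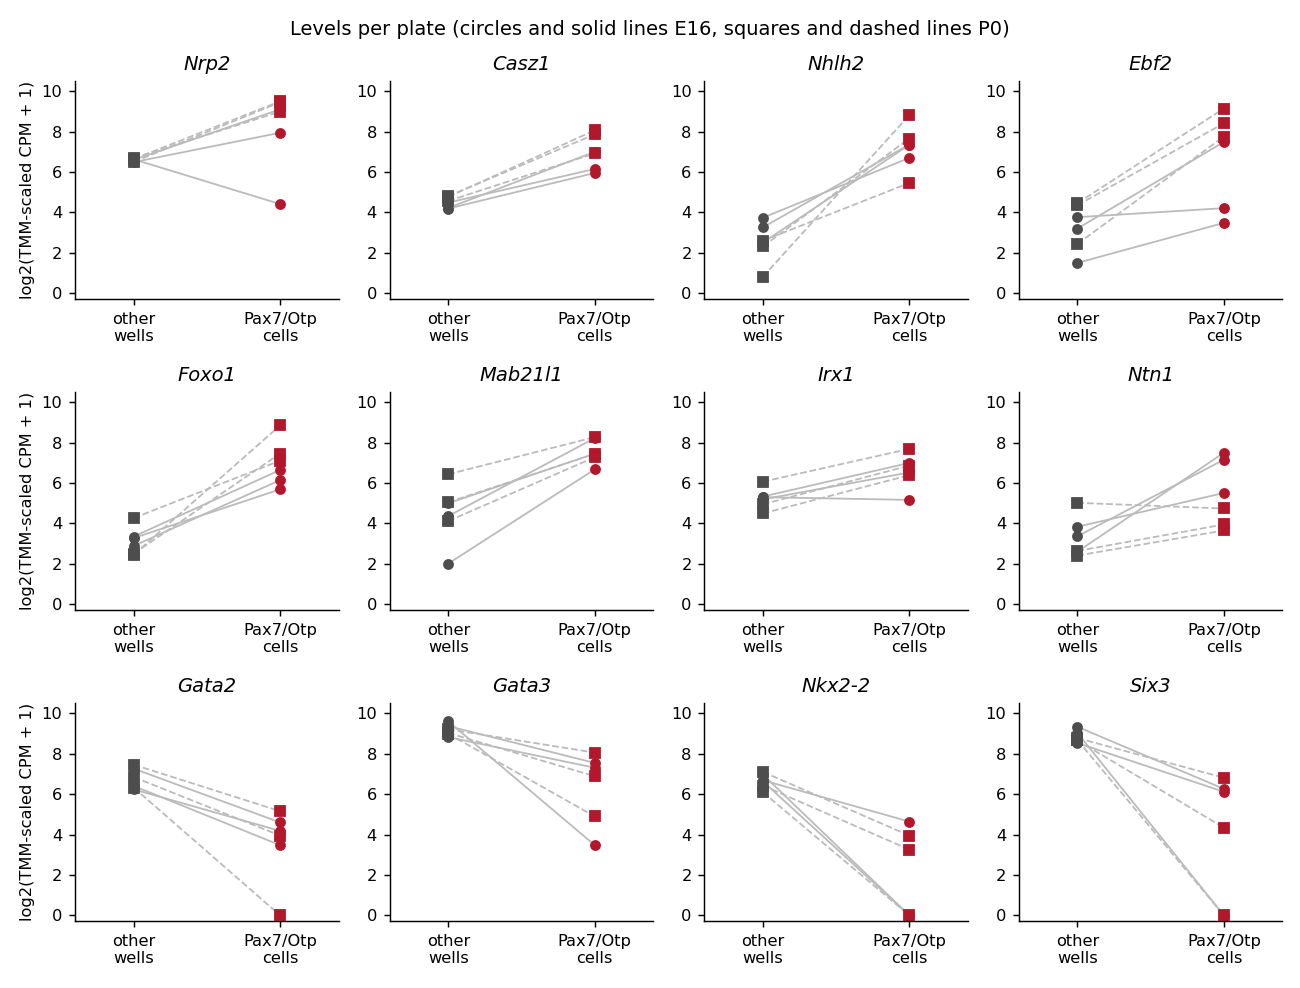
Levels of 12 genes on the 6 plates with at least 3 Pax7/Otp cells, as log2(CPM + 1), TMM-scaled, of counts summed over other wells (grey) and over Pax7/Otp cells (red); a line joins the 2 values of a plate. Casz1, Nhlh2, Foxo1 and Mab21l1 rise on every plate, Nrp2 falls on 1 E16 plate, Ntn1 falls on 1 P0 plate, and Gata2, Gata3, Nkx2-2 and Six3 fall on every plate.

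Transcription factors of rhombomere 1 and the IPN were listed as a group of 21, of which 10 had counts enough to be tested. 5 were higher, none was lower, and the median log2 fold change was 1.09, against -0.02 for all genes tested. The 4 Iroquois genes of the list, homeodomain factors that pattern the neural tube, were all among them. Irx1 had a median of 103 CPM in Pax7/Otp cells and 37.0 CPM in other wells (edgeR adjusted p = 0.00135). Irx2 had 137 against 45.6 CPM (log2 fold change 1.62 ± 0.29), Irx5 92.5 against 23.8 CPM (1.96 ± 0.40) and Irx3 45.0 against 6.87 CPM (2.45 ± 0.58). Each was higher on 5 plates and lower on E16 replicate 1. Meis1, a TALE homeodomain cofactor, was the fifth (1.29 ± 0.29). Irx3 entered the test through the Pax7/Otp cells, so its call adds nothing to its levels. Without P0 replicate 3, Irx1 alone of the list passed. En1 and En2, which define the midbrain and rhombomere 1, did not pass, at -0.56 and 0.90 on the log2 scale.

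Among the selector genes of GABAergic neurons, 5 of 9 tested were lower. Gata2, Gata3 and Tal1 act in the GABAergic programme of the midbrain and rhombomere 1, and neurons from rhombomere 1 depend on Tal1. Zfpm2 encodes a GATA cofactor, and Nkx2-2 marks a ventral domain. Of 15 listed selectors, 9 were tested, and these 5 were lower, 4 did not pass and none was higher, with a median log2 fold change of -1.18. Gata3 had 10.1 to 266 CPM (median 138) in Pax7/Otp cells and 453 to 776 CPM in other wells, without overlap (-2.12 ± 0.29, edgeR adjusted p = 0.000431). Gata2 had 0 to 34.7 CPM against 74.6 to 175 CPM (-2.56 ± 0.26, edgeR adjusted p = 1.70e-05). Tal1 had a median of 62.5 against 175 CPM (-1.35), and on E16 replicate 1 its 140 CPM came within the range of the other wells. Zfpm2 had a median of 334 against 747 CPM (-1.18). Nkx2-2 had 0 to 24.0 CPM against 67.5 to 137 CPM (-3.68 ± 0.43), and it entered the test through the other wells. For Sox14 the value was -1.03 (edgeR adjusted p = 0.174). Tal1 no longer passed without P0 replicate 3 or without E16 replicate 2, while Gata2, Gata3 and Zfpm2 passed in both cases.

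Markers of neighbouring GABAergic populations were likewise lower or did not pass. Of 9 markers of the substantia nigra pars reticulata (SNr), all tested, 4 were lower: Six3, Bcl11b, Irs4 and Pax5, and without P0 replicate 3 only Six3 and Bcl11b. Six3, a homeodomain factor of anterior neural tissue, had 0 to 111 CPM against 370 to 646 CPM (-3.31 ± 0.33, edgeR adjusted p = 1.52e-05); its antisense neighbour Six3os1 moved with it (-3.14), and the 2 overlap on opposite strands. Tcf7l2, a Wnt effector on the same list, had a log2 fold change of 0.05. Of 6 markers of the midbrain reticular formation (MRF), Nkx2-2, Otx1 and the substance P gene Tac1 were lower, and Chrm2, Npy and Nr4a2 had log2 fold changes of -1.16, -1.48 and -1.65 without passing. None of the 4 tested markers of GABAergic neurons of the ventral tegmental area (VTA) passed. The hypothalamic list had 1 testable gene, Dlx1, with 8 counts in the Pax7/Otp cells and 1066 in the other wells, a rate 8.66 times as high in the other wells (95% interval 4.38 to 20.1, counting error only). Sim1 was at 1.49 CPM in the Pax7/Otp cells (2 counts) and 1.20 CPM in the other wells, Hmx2 was at 0 and 2.12 CPM, and Lhx8 was at 0 in both. The summed level of the 13 hypothalamic markers was 0 to 203 CPM against 14.2 to 411 CPM. Pax5 (-1.41) was lower on 5 of 6 plates and missed the threshold in 12 of 18 alternatives. Irs4, Nkx2-2, Otx1 and Dlx1 entered the test through the other wells, so their calls add nothing to their levels.

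Several genes were nearly absent from the Pax7/Otp cells. The long noncoding transcript Sox1ot was counted 1 time in 1299948 counts of the Pax7/Otp cells of the 6 plates and 543 times in 19994231 counts of the other wells, a rate 35.3 times as high in the other wells (95% interval 6.31 to 1397, counting error only). It shares its strand and locus with Sox1. The transcript 9030622O22Rik was counted 2 times against 1306, a ratio of 42.5 (11.7 to 351). Foxa2, a forkhead factor of the floor plate and of dopaminergic neurons, was counted 3 times against 705, a ratio of 15.3 (5.21 to 74.3). Ddc, the aromatic amino acid decarboxylase, was counted 3 times against 595, a ratio of 12.9 (4.39 to 62.7). C1ql1, Sulf1 and Ell2 had 3, 2 and 1 counts in the Pax7/Otp cells. These genes were lower on each plate. They had counts enough for the edgeR test only through the other wells, so that they passed it adds nothing to these ratios. The progenitor factor Sox2 had 0 to 42.9 CPM against 51.4 to 97.8 CPM, without overlap, from 10 counts in the Pax7/Otp cells. Sox2ot, in which Sox2 lies on the same strand, had a log2 fold change of -2.76.

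Among guidance genes, 6 were higher and 1 was lower, of which Ntn1 and Sema3c entered the test through the set where they were high. Netrin-1 (Ntn1), the secreted ligand of Dcc and Unc5 receptors, had 11.6 to 180 CPM (median 35.1) against 4.31 to 31.5 CPM, a log2 fold change of 2.62 ± 0.55. It was higher on 5 plates and lower on P0 replicate 2. Netrin-G1 (Ntng1), a membrane-anchored netrin relative, was also higher (1.32 ± 0.28), with 0 CPM in the 3 cells of P0 replicate 1. The other 10 tested of 14 listed netrin ligands and receptors did not pass; Dcc had 0.76 ± 0.22 (edgeR adjusted p = 0.107). Of 17 tested semaphorin genes, Nrp2 was higher and Sema3c lower (-2.20), and Nrp1 had -0.60. Of 18 tested Slit, Robo and Eph genes, Epha6 (1.24 ± 0.15, edgeR adjusted p = 9.56e-05), Epha4 (0.97) and Slit2 (0.88) were higher and none was lower, with a list median of 0.64. Epha6 lay between 448 and 900 CPM against 177 to 360 CPM, with no overlap. Without P0 replicate 3, Nrp2 and Epha6 were the guidance genes that passed, besides Ntn1, whose call adds nothing to its levels.

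Of 22 cadherins and protocadherins, all tested, Cdh9 was higher (1.17), Cdh4 (-0.73), Cdh6 (-1.79) and Pcdh11x (-1.66) were lower, and 18 did not pass. Among 7 tested genes of GABA and glycine transmission none passed, and Gad1, Gad2 and Slc32a1 had log2 fold changes of -0.29, -0.12 and -0.47. Of 8 tested neuropeptide genes Tac1 alone passed, and of 9 receptors for peptides and monoamines Htr2c alone (-1.49). No nicotinic receptor subunit passed among the 4 tested. Of 17 genes of neuronal maturation, 16 did not pass. The exception was Calb1, the calcium-binding protein calbindin, with 0 to 30.8 CPM against 9.30 to 321 CPM (-3.11 ± 0.31, edgeR adjusted p = 1.61e-05).

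**Figure D3:**
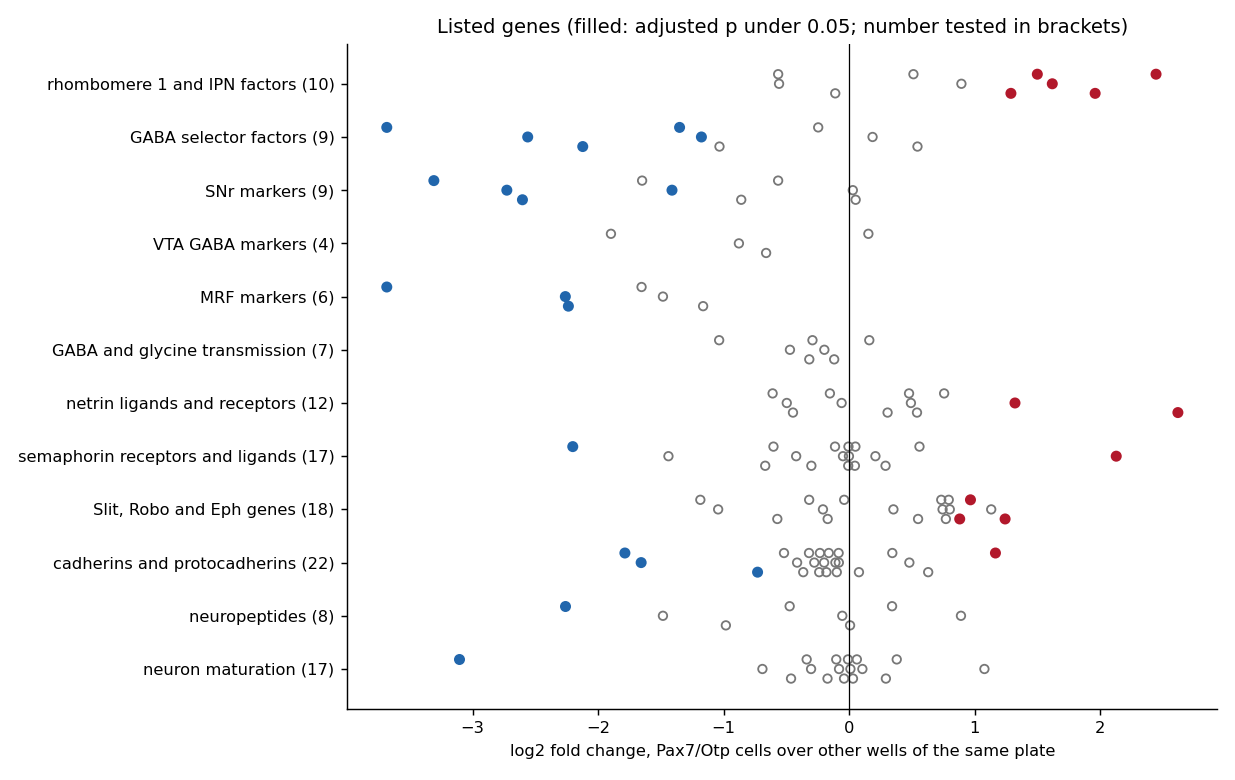
Log2 fold change of listed genes between Pax7/Otp cells and other wells of the same plate, 1 row per list with the number tested in brackets; filled points passed the edgeR test (red higher, blue lower) and open points did not. The 5 filled factors of rhombomere 1 and the IPN lie to the right of 0, and the filled GABA selectors, SNr markers and MRF markers lie to the left.

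The 83 cells were not of 1 kind. When wells were placed by their 15 nearest neighbours over 2871 variable genes, without Pax7 and Otp, cells with counts of both genes had a median of 15 Pax7/Otp cells among their neighbours. Cells with Pax7 alone had a median of 3, cells with Otp alone 4, and other wells 0. Casz1 was found in 53.8% of cells with both genes, 21.7% with Pax7 alone, 16.7% with Otp alone and 5.87% of other wells after thinning to 4000 counts. Nrp2 was found in 89.7, 43.5, 55.6 and 25.7% of these sets, and Ebf2 in 48.7, 13.0, 0 and 2.33%. Gata3 ran the other way, with 12.8, 47.8, 38.9 and 67.8%. Tal1 was found in 0 of 39 thinned cells with both genes and in 34.8% of those with Pax7 alone. These shares are a description of the chosen wells.

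**Figure D4:**
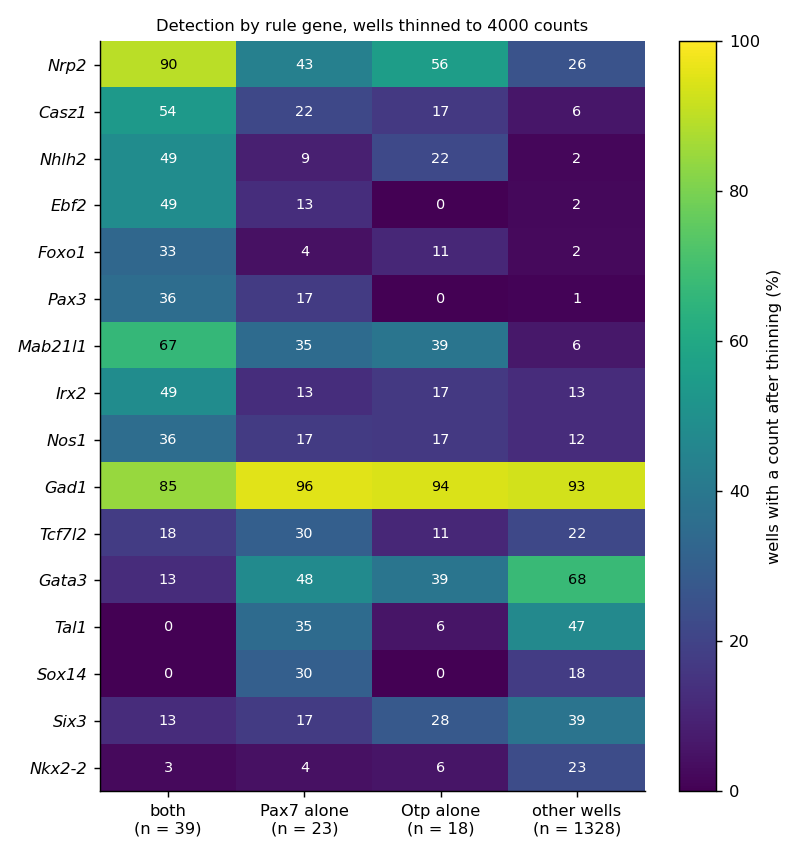
Percent of wells with a count of each gene after thinning every well to 4000 counts, for cells with both Pax7 and Otp, with Pax7 alone, with Otp alone, and for other wells; n gives the thinned wells. Nrp2, Casz1, Nhlh2, Ebf2, Foxo1 and Pax3 are highest in the column of both genes, and Gata3, Tal1, Six3 and Nkx2-2 in the column of other wells.

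The comparison was repeated with only cells that had counts of both genes, an analysis chosen after seeing the data. The 4 plates with at least 3 such cells were E16 replicate 2, with 8, and P0 replicates 1, 2 and 3, with 3, 5 and 21, and the 3 such cells of other plates were left out. Of 9700 genes 545 passed (5.62%), 220 higher (2.27%) and 325 lower (3.35%). Of the 177 genes of the whole set, 148 were among the 545. Levels here are CPM of the summed counts in that order of plates. Ebf2 had 387, 574, 653 and 482 CPM in these cells and 7.99, 20.5, 4.18 and 19.2 CPM in the other wells (log2 fold change 5.26 ± 0.28). Pax3, the paired-box relative of Pax7 that shares its dorsal domain, had 179, 250, 163 and 226 CPM against 2.80, 0, 5.37 and 3.20 CPM. Nhlh1, the sister gene of Nhlh2, had 96.7, 44.2, 190 and 122 CPM against at most 1.79 CPM. Ebf2, Pax3 and Nhlh1 entered this test through the cells where they are high, so no p-values are given for them. Pax3 and Nhlh1 did not pass the low-count filter in the comparison of the whole set, in which Pax3 had no count on E16 replicate 3. For each of these 3 genes all 4 values in the cells with both genes lay above those in the other wells.

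Chrna2, a nicotinic acetylcholine receptor subunit known from the IPN, had 193, 44.2, 27.2 and 256 CPM in the cells with both genes, against 0.599, 0.731, 1.19 and 2.13 CPM, and it too entered the test through the cells where it is high. The value of P0 replicate 2 rests on 1 count and that of P0 replicate 1 on 3. Among factors of rhombomere 1 and the IPN, 11 were tested: Irx1, Irx2, Irx3, Irx5, En2 and Pax3 were higher and En1 was lower. Irx3 and Pax3 entered the test through the cells where they are high, so their calls add nothing to their levels. En2 had a log2 fold change of 1.74 ± 0.33 (edgeR adjusted p = 0.000206). En1 was counted 4 times in these cells, 2 of them on P0 replicate 2, and was at 40.2 to 68.7 CPM in the other wells. The GABA selectors Gata2, Gata3, Tal1, Sox14, Zfpm2 and Nkx2-2 were lower, 6 of 9 tested. Gata3 was counted 11 times, at 7.44 to 54.4 CPM against 443 to 563 CPM (-4.55 ± 0.33, edgeR adjusted p = 2.69e-14). Tal1 and Nkx2-2 were counted 2 times each, Gata2 6 times and Sox14 1 time, so these 4 genes and En1 entered the test through the other wells, and their calls add nothing to these counts. Gad1 was lower than in the other wells, with a log2 fold change of -0.65 ± 0.19 (edgeR adjusted p = 0.0292), and so was the vesicular GABA transporter gene Slc32a1, with -0.82 ± 0.25 (edgeR adjusted p = 0.0380).

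Of 19 tested Slit, Robo and Eph genes, Slit1, Slit2, Epha3, Epha5, Epha6 and Epha7 were higher and Robo1, Robo2 and Ephb1 lower. Epha5 had 1347, 1296, 1115 and 1157 CPM against 349, 373, 311 and 256 CPM (1.87 ± 0.18, edgeR adjusted p = 1.98e-10). Robo2, a receptor for Slit ligands, had 96.7, 14.7, 27.2 and 63.0 CPM against 743, 687, 593 and 763 CPM (-3.65 ± 0.28, edgeR adjusted p = 1.24e-13). Robo1 was lower by 1.24 ± 0.22 on the log2 scale. Neither Robo gene passed over all 83 cells. Dcc, the netrin-1 receptor, was higher with 2032, 5021, 2774 and 3816 CPM against 1429, 1525, 949 and 892 CPM (1.39 ± 0.19, edgeR adjusted p = 4.45e-07). Ntn1 did not pass (edgeR adjusted p = 0.235). Of the cadherins and protocadherins, 2 were higher and 10 lower, and of the neuropeptide genes Sst, Tac1 and Cbln4 were lower.

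Clustering of all 1459 wells without Pax7 and Otp gave 20 clusters, of which 12 held no Pax7/Otp cell. A cluster of 30 wells held 28 Pax7/Otp cells, 22 of them with both genes, 3 with Pax7 alone and 3 with Otp alone, and a cluster of 19 wells held only Pax7/Otp cells, 14 of them with both, 3 with Pax7 alone and 2 with Otp alone. The first had wells of both stages on 5 plates, and 13 of the 19 wells of the second came from P0 replicate 3. The following values were not tested, since the same genes made the clusters. The cluster of 30 wells was led by Ebf2, Pax3, Foxo1, Pax7 and Nhlh2. The cluster of 19 wells was led by Nos1, the neuronal nitric oxide synthase, by Pcsk5, a proprotein convertase, and by Egfr and Chrna2. Ebf2 was at 685 CPM in the first and 31.4 CPM in the second, Foxo1 at 414 and 0 CPM, Nhlh2 at 347 and 31.4 CPM, and Shisa6 at 1045 and 110 CPM. Nos1 was at 23.8 and 1964 CPM, Pcsk5 at 33.3 and 1220 CPM, and Egfr at 16.7 and 230 CPM. Their shared genes were Nrp2 (733 and 1079 CPM), Casz1 (357 and 314 CPM), Sox6 (252 and 298 CPM), Chrna2 (157 and 225 CPM) and Irx5 (181 and 267 CPM). Their median depth was 15412 and 11117 counts.

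The remaining 36 Pax7/Otp cells lay in clusters made mostly of other wells. In them Casz1 was at 20.3 CPM, against 20.6 CPM in the other wells outside the 2 clusters, and Chrna2 and Nhlh1 were at 0. Nrp2 was at 224 against 93.9 CPM, and Gata3 at 250 against 607 CPM. Ntn1 was at 85.2 CPM in these 36 cells, against 14.3 CPM in the cluster of 30 wells and 0 in the cluster of 19. These are 63, 6 and 0 counts. Ntn1 was also among the leading genes of a cluster of 59 wells, of which 7 were Pax7/Otp cells, with a count in 33.9% of its wells. Ebf2 at 2.69 CPM and Foxo1 at 14.9 CPM were low in them, with Nhlh2 at 83.8 CPM in between.

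The promoters of the genes that were higher were searched for motifs, since several of the factors above bind known sequences. RefSeq promoters of GRCm38.p6 were matched by symbol for 66 of the 93 higher genes, and the 250 bases before each start were read on both strands. The palindrome bound by early B-cell factors, TCCC and GGGA with any 2 bases between them, occurred in 4 of 66 genes (6.06%), in 1.14% of all 7566 tested genes with a promoter and in 0.779% of all 32851 promoters. The E-box CAGCTG, a sequence of helix-loop-helix factors, occurred in 14 of 66 genes (21.2%), in 14.0% of tested genes and in 13.0% of all promoters. The forkhead sequence TGTTTAC occurred in 3 of 66 (4.55%), in 2.55% of tested genes and in 3.17% of all promoters. The homeodomain pair TAAT and ATTA occurred with 2 bases between in 1 of 66 genes (1.52%), 0.198% of tested genes and 0.384% of all promoters, and with 3 bases between in 0 of 66, 0.251% of tested genes and 0.463% of all promoters. All but the forkhead sequence read the same on both strands. These counts are a description and no test. Whether any factor acts at these sites was not tested. The 4 stretches with the palindrome are shown with it in capitals, each 5′ to 3′ on the strand of its gene.
Foxo1: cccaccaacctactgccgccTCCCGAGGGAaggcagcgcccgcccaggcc
Mast4: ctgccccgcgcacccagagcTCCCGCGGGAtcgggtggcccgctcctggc
Sgk1: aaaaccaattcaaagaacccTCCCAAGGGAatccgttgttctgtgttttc
Vav3: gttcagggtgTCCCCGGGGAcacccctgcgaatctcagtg
They lie in GRCm38.p6 at chr3:52268225-52268274 (plus strand), chr13:103334600-103334649 (minus), chr10:21881953-21882002 (plus) and chr3:109340433-109340472 (plus). The palindrome begins 92, 137, 211 and 240 bases before the start of the gene. Foxo1 is the forkhead factor described above (log2 fold change 4.01), Mast4 encodes a serine-threonine kinase (1.04) and Sgk1 a kinase of the insulin and glucocorticoid pathways (1.11). For Vav3 the log2 fold change was 1.20.

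Sox14 has been used as a marker of the caudal IPN, so the Pax7/Otp cells were set against the 292 other wells with at least 2 Sox14 counts. Of 7555 genes 126 passed (1.67%), 68 higher (0.900%) and 58 lower (0.768%) in the Pax7/Otp cells, with Sox14 left out, and 708 had an unadjusted p under 0.05. Only 48 passed without P0 replicate 3, and 76 without E16 replicate 2. Foxo1 had 53.7 to 498 CPM against 0 to 16.6 CPM, Nhlh2 44.9 to 483 against 0 to 22.8 CPM and Casz1 64.5 to 276 against 0 to 11.1 CPM, none with an overlap. These 3 genes entered the test through the Pax7/Otp cells, so only their levels are given. Of the other early B-cell factor genes, Ebf1 was higher than in Sox14 wells (2.81 ± 0.42, edgeR adjusted p = 0.00232), as was Ebf3 (1.96 ± 0.33), while against all other wells neither passed (0.44 and 0.08). The zinc finger factor Zfp423, a partner of early B-cell factors, had 96.8 to 180 CPM against 24.5 to 44.2 CPM (2.06 ± 0.22).

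Lower than in Sox14 wells were Gata3 (-2.68 ± 0.32, 10.7 to 278 against 687 to 1132 CPM), Six3 (-2.97), Otx1 (-3.25), Bcl11b (-3.32) and the muscarinic receptor gene Chrm2 (-2.23). Otx1, with 18 counts in the Pax7/Otp cells, entered this test through the Sox14 wells, so its call adds nothing to its levels. Otx1 was at 126 ± 37.9 CPM and Chrm2 at 316 ± 68.8 CPM (SD, n = 6 plates) in the Sox14 wells, so these wells held markers of the MRF and are named by their rule only. Of 17 tested Slit, Robo and Eph genes, Slit2, Slit3 and Epha6 were higher and Robo1 was lower, and without P0 replicate 3 Epha6 alone passed. The comparison shares its Pax7/Otp cells with the one above, so the 2 are not independent.

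Cells with Pax7 alone and cells with Otp alone were compared on the 3 plates with at least 3 of each, E16 replicates 1 and 2 and P0 replicate 2. Of 1606 genes 1 passed (0.0623%), and 85 had an unadjusted p under 0.05. It was Tcf7l2, with 2347, 1942 and 633 CPM in cells with Pax7 alone and 90.6, 70.2 and 36.1 CPM in cells with Otp alone (log2 fold change 4.59 ± 0.38, edgeR adjusted p = 0.0278). The Otp values rest on 5, 3 and 1 counts, so Tcf7l2 entered the test through the cells with Pax7 alone and its p-value adds little to these levels. Tcf7l2 did not pass when either E16 replicate was left out, which leaves 2 plates, while its log2 fold change stayed between 4.44 and 4.78 over all settings tried. DESeq2 called 7 genes. Gata3 was the next gene, with a log2 fold change of 2.88 (edgeR adjusted p = 0.134). Over all plates Sox14 was found in 30.4% of thinned cells with Pax7 alone and in 0 of 18 with Otp alone, and Tfap2b in 21.7% and 0.

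Whether the Pax7/Otp cells changed between E16 and P0 was asked over the 3 plates of each stage. None of 3851 genes passed (0%), 255 had an unadjusted p under 0.05, and DESeq2 called 4. With the second plate label 0 of 4499 genes passed, and 241 had an unadjusted p under 0.05. Robo1 had the lowest unadjusted p of the listed genes, with a log2 change of -1.85 ± 0.41 towards P0 (edgeR adjusted p = 0.448). Among the 31 cells of E16 plates 11 had both genes (35.5%), and among the 52 of P0 plates 29 (55.8%), of which 21 were on P0 replicate 3. With the second plate label this turned round, with 33 of 60 cells at E16 (55.0%) and 7 of 23 at P0 (30.4%). The part of this difference in the stage values was not tested.

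The change with stage in Pax7/Otp cells was then set against the change in the other wells of the same plates. Of 10879 genes 1 passed (0.00919%), Dcc, and 509 had an unadjusted p under 0.05. Dcc had 1387, 1690 and 2149 CPM in the Pax7/Otp cells of E16 replicates 1, 2 and 3, and 4761, 2180 and 2819 CPM in those of P0 replicates 1, 2 and 3. In the other wells it had 1510, 1466 and 2251 CPM at E16 and 1545, 1004 and 901 CPM at P0. Within plates, the level in Pax7/Otp cells was close to that of other wells at E16 and above it on all 3 P0 plates. Of the Pax7/Otp cells, 21 of 31 at E16 and 15 of 52 at P0 lay outside the 2 clusters above, and Dcc was at 3864 CPM in the cluster of 30 wells, 2524 CPM in the cluster of 19 and 1353 CPM in the cells outside them. The part of this in the Dcc values was not tested. The difference of the 2 changes was 1.46 ± 0.22 on the log2 scale (edgeR adjusted p = 0.0137). It did not pass without P0 replicate 3 (1.36, edgeR adjusted p = 0.219), nor with spliced counts (1.72, edgeR adjusted p = 1.00), and with the second plate label it was -0.33 (edgeR adjusted p = 0.996). It was 1.17 in the cells with both genes, where 1 E16 plate stood against 3 P0 plates, and 1.10 on the plates whose 2 labels agree, where 1 P0 plate stood against 2 E16 plates.

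**Figure D5:**
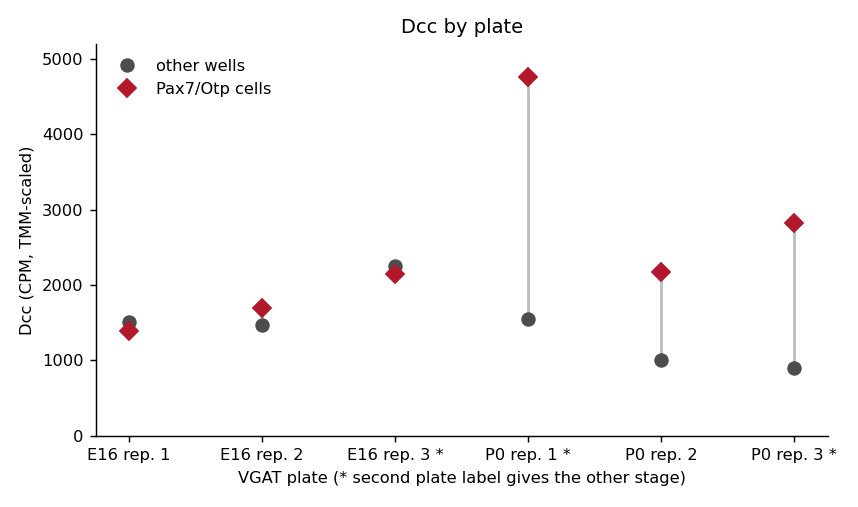
Dcc level on the 6 plates with at least 3 Pax7/Otp cells, as TMM-scaled CPM of summed counts, for Pax7/Otp cells (red diamonds) and other wells (grey circles); an asterisk marks plates whose second label gives the other stage. On the P0 plates the diamonds lie at 2180 to 4761 CPM, above circles at 901 to 1545 CPM, and on the E16 plates both lie between 1387 and 2251 CPM.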

How the data were processed

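Cells were profiled by SORT-seq, a plate form of CEL-seq2 in which random barcodes mark single molecules. According to the labels and methods, the authors aligned reads to GRCm38 (Ensembl release 93, mm10) with STAR and counted reads on exons and introns for each gene in each cell. The values they deposited are expected counts, that is counts of distinct molecular barcodes, corrected for barcode collisions, with no scaling to depth, of which 51.7% of non-zero values are not whole. They were rounded for the rule and after summing for tests. Whether counting used strand is not given in the sources used here, so overlapping genes on opposite strands cannot be told apart. The total of kept wells per VGAT plate was 1494450 to 5698560 counts.

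Sums per plate of at least 3 wells were tested with edgeR 4.0.16 (R 4.3.3; quasi-likelihood test after filterByExpr and TMM scaling, plate as block within plates, Benjamini-Hochberg, 0.05). The thresholds on wells follow the rule of selection; no doublet caller was run, and wells above 2 times the plate median were left out in an alternative. Clusters used scanpy 1.11.5 and python-igraph 0.11.9 (40 components, 15 neighbours, resolution 1). On simulated data with 200 genes changed 4-fold, 93.5% were recovered for Pax7/Otp cells against other wells (9979 genes, 5 others called) and 53% for the difference of stage changes (10878 genes, 4 others called). The simulation used the trended dispersion, with no plate effects and no mixture of cells, so recovery in the data may be lower. Shares of wells with a gene were taken after thinning to 4000 counts, which left out 51 wells. Genes named are Pax7, Otp, Nrp2, Casz1, 278 genes in 21 lists, and the 10 largest changes each way with the same direction on all plates; Sox6, Pax3, Nhlh1, Ebf1, Ebf3, Tfap2b and the leading genes of clusters were chosen after their values were seen. The cells, lists and tests were chosen with earlier results of these data known. Ptf1a and Ntn3 have no row in the table. The alternatives were DESeq2 1.42.0, RLE factors, no filter, spliced counts, limma 3.58.1 voom with quality weights, no plate in the model, the replicate number as a block, other rules for the cells, other filters, and each plate left out.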

Additional observations from a re-analysis of the deposited data

Results flagged for a closer look

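The change of Dcc from E16 to P0 differed between Pax7/Otp cells and the other wells of the same plates by 1.46 on the log2 scale, in a test of the difference itself (edgeR adjusted p = 0.0137, higher in Pax7/Otp cells than in other wells on 3 of 3 P0 plates and 1 of 3 E16 plates). Over the settings tried, the adjusted p lay between 4.33e-09 and 1.00, and with the second plate label the difference turned round to -0.33.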

How the results depend on the processing

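Within plates, directions were stable: none of the named genes that passed against other wells or Sox14 wells turned round under the settings that tested it, and of the 49 that passed against other wells 27 passed in each such setting. Counts of genes moved more. The counts with each plate left out in turn ranged from 69 to 226 against other wells, from 48 to 175 against Sox14 wells, from 0 to 48 between cells with Pax7 and with Otp alone, were 0 for stage within Pax7/Otp cells, and ranged from 0 to 37 for the difference of stage changes; a lone plate is then assumed to vary like the others. Without the filter on low counts the counts of these 5 comparisons were 406, 356, 47, 64 and 62. With only cells that had both genes they were 545 and 332 against other wells and Sox14 wells, and 13 and 12 for the stage comparisons, with a single E16 plate. Without the plate in the model, 117 genes passed against other wells. DESeq2 called 7 genes between cells with Pax7 and with Otp alone and 4 for stage. With spliced counts 6 genes passed between cells with 1 gene and 8 for the difference of stage changes, and without wells above 2 times the plate median 2 and 5. On plates whose 2 labels agree, with a single P0 plate, 1 gene passed for stage and 23 for the difference of changes, and with the second label 6 for the latter. That label turned the share difference to -6.15 points and the Dcc difference to -0.33; the cause was not tested. The difference of shares lay between 3.66 and 9.90 points with each plate left out, and was 1.65 points on plates whose labels agree. Same-numbered E16 and P0 plates were nearly uncorrelated (0.033, 0.025 and 0.032). Plates of different numbers were not correlated for comparison, so this neither shows nor excludes pairing. With the replicate block 0 genes passed for stage, and the mean difference of shares was 6.82 points (exact sign-flip p = 0.25). With 1299948 counts in the Pax7/Otp cells of the 6 plates, genes of a few counts are not resolved on single plates.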
